A study of Mus musculus with 11 samples.

Results

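The small leucine-rich proteoglycans are a family of secreted matrix proteins whose cores are built of leucine-rich repeats, and 10 genes that encode them (Bgn, Dcn, Aspn, Lum, Fmod, Prelp, Omd, Ogn, Epyc and Podn) are described here in cultured fetal lung mesenchymal cells of the mouse. The members were the rows of the gene count tables that carry these symbols, 10 of 24062 genes listed, and all 10 were found. The cells came from lungs at embryonic day 15, were passaged in culture and were sequenced as RNA. The libraries comprise 4 from wild-type embryos (WT, Sp3+/+), 4 from embryos with a single intact copy of Sp3 (Sp3+/-) and 3 from embryos with none (Sp3-/-). Sp3 is a transcription factor of the Sp family, which binds GC boxes in promoters. The mutant allele is carried by the whole embryo, not by the mesenchyme alone, and the labels name no treatment of any group. The comparison of Sp3-/- with WT asks how loss of Sp3 changes mesenchymal gene expression. Neither the labels nor the methods say whether each library came from a separate embryo, so the p-values measure the spread between libraries.

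Small leucine-rich proteoglycans bind fibrillar collagens and set the width and spacing of the fibrils, and several also hold transforming growth factor beta and other ligands in the matrix. Most carry chondroitin, dermatan or keratan sulfate chains, although some, such as asporin, carry none. In connective tissues, including the lung, they are made mainly by fibroblasts and related mesenchymal cells, and decorin and biglycan are the best studied of them.

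The libraries held 9849111 to 59297495 reads on genes. Levels of a gene are given as log2 CPM, the log2 of a gene's reads per 1000000 reads on genes, after normalization for library composition with the trimmed mean of M-values (TMM). Sp3 itself measured 6.37 ± 0.35 log2 CPM in WT cells (SD, n = 4), 5.91 ± 0.20 in Sp3+/- cells (n = 4) and 4.10 ± 0.21 in Sp3-/- cells (n = 3), and the Sp3-/- libraries did not overlap the others. The related factor Sp1 measured 7.06 ± 0.13, 7.13 ± 0.09 and 7.32 ± 0.13 log2 CPM in the same order. All 11 listed lung mesenchyme markers, led by the collagen genes Col1a1 and Col1a2, had more than 3 reads in at least 1 library. Some library titles carry a trailing 2 or 3, a suffix whose meaning the labels leave unsaid. The 3 Sp3-/- libraries, WT library 468-4 and Sp3+/- library 697-4 have no suffix, so that genotype and suffix cannot be fully told apart. The macrophage markers summed to 2960 CPM in WT 468-4 and 2850 CPM in Sp3+/- 697-4, against 337 to 834 CPM in the other Sp3-carrying libraries and 2850 to 10600 CPM in Sp3-/- libraries.

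In Sp3-/- cells the family split. Decorin and lumican RNA rose 2.50-fold and 4.94-fold above WT, while biglycan fell 2.65-fold, osteoglycin 7.19-fold and asporin 44.4-fold. Of the 10 members, 9 passed the filter on low counts (CPM above 1 in at least 1 library) and could be tested. Of these 9, 5 were called by the quasi-likelihood test of edgeR at a Benjamini-Hochberg adjusted p below 0.05, beside 18.5% of all genes tested. The 2 members called higher stand beside 8.76% of all genes called higher, and the 3 called lower beside 9.77%. The libraries of the genotypes did not overlap for the same 5 members, and they did not overlap for 31.3% of all genes tested. The median log2 fold change was -0.44 over the 9 members and 0 over all genes. With the title suffix as a covariate in a fit of all 11 libraries, 2 of the 9 members were called (Bgn and Aspn), beside 9.41% of all genes. That fit gave Sp3+/- library 468-3, the only one with suffix 2, a term of its own, so this library did not bear on the genotypes.

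**Figure D1:**
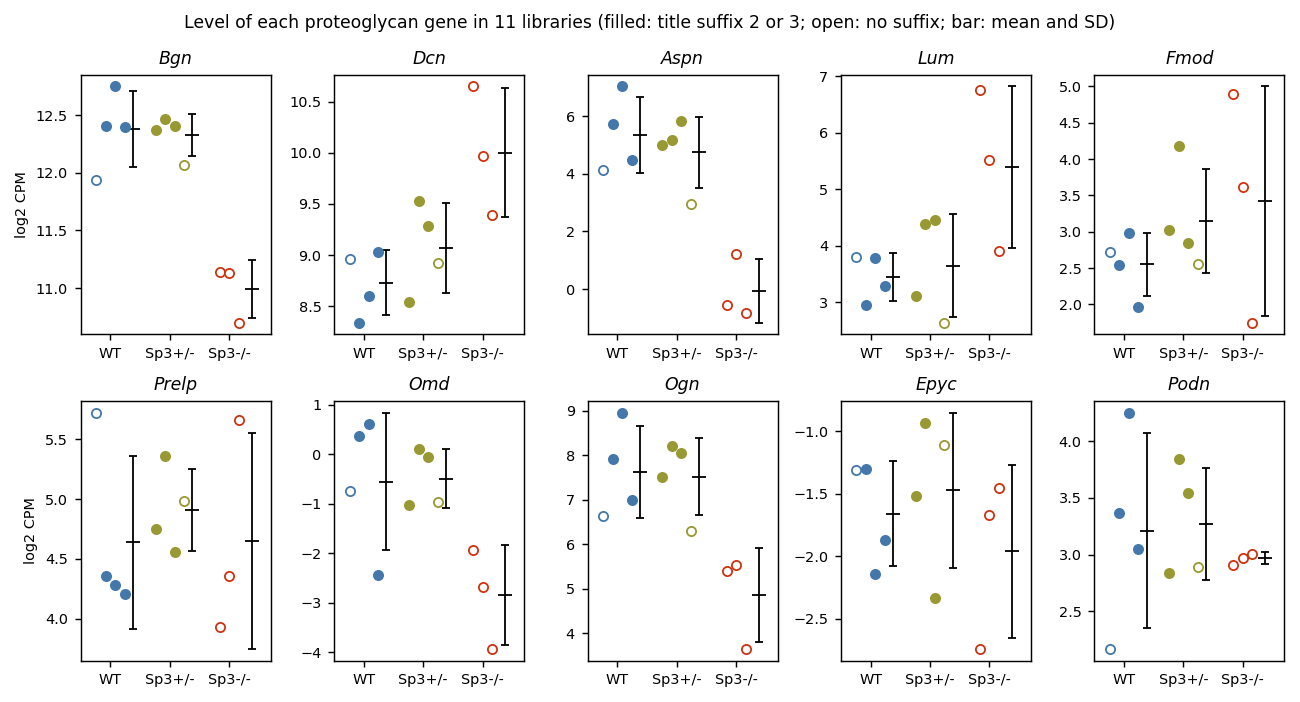
Log2 CPM (y axis) of the 10 genes in each library by genotype (x axis), 1 panel per gene with its own y range. Open points are libraries without a title suffix and filled points those with suffix 2 or 3, and black bars give the mean and SD. Bgn, Aspn and Ogn lie lower in all 3 Sp3-/- libraries than in every other library, Dcn and Lum lie above every WT library, and in the remaining genes the Sp3-/- and WT libraries overlap.

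Biglycan, a class I member with a pair of glycosaminoglycan chains that binds collagen and signals through Toll-like receptors, was the most abundant member in every genotype. Bgn lies on chromosome X of GRCm38.p6 from 73483601 to 73495936. WT libraries 468-4, 685-2, 697-1 and 697-3 measured 11.94, 12.41, 12.75 and 12.40 log2 CPM. Sp3+/- libraries 468-3, 685-5, 685-7 and 697-4 measured 12.37, 12.47, 12.41 and 12.07, and Sp3-/- libraries 685-1, 697-2 and 697-5 measured 11.14, 11.13 and 10.70. Every Sp3-/- library lay below every other library, and within WT and within Sp3+/- the library without a suffix was the lowest. Relative to WT the log2 fold change was -1.41 (standard error, SE, 0.23, edgeR adjusted p = 0.0132), and with the suffix covariate it was -1.03 (SE 0.19, adjusted p = 0.0183). Bgn was called in 6 of 7 fits that left out 1 library, the exception being the fit without Sp3-/- 697-2 (adjusted p = 0.0558).

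Decorin, the class I relative of biglycan with a single chain, coats collagen fibrils and binds several growth factors and receptors. Dcn lies on chromosome 10 from 97479500 to 97518163. It measured 8.96, 8.34, 8.60 and 9.03 log2 CPM in the WT libraries, in the order given for Bgn, 8.54, 9.53, 9.28 and 8.92 in the Sp3+/- libraries, and 10.65, 9.97 and 9.39 in the Sp3-/- libraries. The Sp3-/- libraries exceeded every WT library, but Sp3+/- 685-5 lay above Sp3-/- 697-5. The log2 fold change of Dcn against WT was 1.32 (SE 0.29, edgeR adjusted p = 0.0266). The value stayed at 1.36 with the suffix covariate, where the call was lost (adjusted p = 0.0590), and the call held in 3 of 7 fits that left out 1 library. Within the libraries whose labels start with 685, Sp3-/- was higher than WT by 2.31 on the log2 scale (1 library each), and within those that start with 697 it was higher by 0.87 (2 libraries each).

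The ratio of Dcn to Bgn reads within a library, to which normalization between libraries does not contribute, was 0.0563 to 0.127 in WT and 0.0699 to 0.130 in Sp3+/- cells. It was 0.709, 0.448 and 0.403 in Sp3-/- libraries 685-1, 697-2 and 697-5. No Sp3-/- library overlapped the range of the Sp3-carrying libraries, and WT 468-4 and Sp3+/- 697-4, which share the missing suffix, were at 0.127 and 0.112.

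Asporin, the class I member that lacks glycosaminoglycan chains and is known for binding transforming growth factor beta, had the largest fitted change of the tested members. Aspn lies on chromosome 13 from 49544443 to 49567565. WT libraries held 627, 771, 3225 and 743 reads, Sp3+/- libraries 454, 2103, 2523 and 155 reads, and Sp3-/- libraries 22, 100 and 5 reads. On the log2 CPM scale these were 4.14, 5.72, 7.03 and 4.47, then 5.01, 5.17, 5.82 and 2.95, and in Sp3-/- cells -0.55, 1.22 and -0.82. Levels spread widely among libraries of a genotype, with Sp3+/- 697-4 the lowest of the Sp3-carrying libraries, yet none reached the Sp3-/- range. The log2 fold change was -5.47 (SE 1.0, edgeR adjusted p = 0.0166), -3.59 with the suffix covariate (SE 0.82, adjusted p = 0.0326) and between -4.64 (without WT 697-1) and -6.58 (without Sp3-/- 697-2) when 1 library was left out. The call was lost without Sp3-/- 697-2 (adjusted p = 0.0547) and with limma-voom (adjusted p = 0.0726).

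Because Sp3 binds GC boxes, promoter sequences of the members were searched for them, but binding of Sp3 to these promoters was not tested. The RefSeq promoter table of GRCm38.p6 held entries for 8 of the 10 members, and Dcn and Lum have none there. The 250 bases before the annotated start were searched for the GC box core GGGCGG on both strands (CCGCCC on the other), counting overlapping matches separately. This motif was present in 32.7% of 32851 promoters of the same length. Among the 8 members it was present before Bgn and before 1 of the 2 starts of Podn. Bgn was called lower and Podn was not called, while Aspn and Ogn, both called lower, held no match. Windows before Bgn, the abundant gene that fell, and before Aspn and Omd, from the chromosome 13 cluster, are shown 5′ to 3′ on the strand of the gene, with the motif in capitals.
Bgn, chrX:73483351-73483600, plus strand: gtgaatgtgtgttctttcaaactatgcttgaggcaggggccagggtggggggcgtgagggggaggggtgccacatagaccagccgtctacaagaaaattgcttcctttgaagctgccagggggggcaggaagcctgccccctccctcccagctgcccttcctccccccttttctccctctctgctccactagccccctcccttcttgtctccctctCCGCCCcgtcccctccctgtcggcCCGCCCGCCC
Aspn, chr13:49544193-49544442, plus strand: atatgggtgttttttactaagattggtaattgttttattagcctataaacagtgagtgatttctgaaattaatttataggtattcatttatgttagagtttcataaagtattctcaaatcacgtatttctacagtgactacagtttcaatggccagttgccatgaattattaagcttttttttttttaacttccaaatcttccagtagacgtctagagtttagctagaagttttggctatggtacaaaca
Omd, chr13:49582212-49582461, plus strand: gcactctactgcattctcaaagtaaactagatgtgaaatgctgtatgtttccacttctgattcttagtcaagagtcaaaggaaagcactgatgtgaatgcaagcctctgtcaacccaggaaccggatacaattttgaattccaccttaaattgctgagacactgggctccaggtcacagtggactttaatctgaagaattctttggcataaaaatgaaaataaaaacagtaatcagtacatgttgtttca
The Bgn window held 3 matches, all within 34 bases of the start and 2 of them overlapping, in 64.4% G and C. The Aspn and Omd windows held none, in 30.0% and 38.4% G and C, where the median of all promoters was 52.4%. The letters TATAAA, or TTTATA on the other strand, occurred in 12.4% of all promoters and at 2 separate places in the Aspn window. The Ogn window held 2 matches that overlap in a single stretch, on opposite strands. It held no GC box in 42.0% G and C and is not printed.

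Of the class II members, which as proteins can carry keratan sulfate, lumican changed. Lum encodes a collagen-binding proteoglycan best known from the cornea and lies next to Dcn on chromosome 10, from 97565501 to 97572703. WT libraries measured 3.81, 2.95, 3.78 and 3.28 log2 CPM, Sp3+/- libraries 3.12, 4.39, 4.46 and 2.64, and Sp3-/- libraries 6.75, 5.52 and 3.90. All Sp3-/- values exceeded WT, 697-5 only narrowly, and 2 Sp3+/- libraries lay above 697-5. The log2 fold change against WT was 2.30 (SE 0.57, edgeR adjusted p = 0.0343) and 2.59 with the suffix covariate (adjusted p = 0.0801). The call held in 2 of 7 fits that left out 1 library, with values from 1.42 (without Sp3-/- 685-1) to 2.74.

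Fibromodulin, a close relative of lumican that also binds collagen fibrils, measured 2.72, 2.54, 2.98 and 1.97 log2 CPM in WT, 3.02, 4.18, 2.84 and 2.55 in Sp3+/- and 4.89, 3.61 and 1.75 in Sp3-/- libraries. The Sp3-/- libraries included both the highest and the lowest Fmod value of the series, and the log2 fold change of 1.33 did not pass the test (SE 0.61, edgeR adjusted p = 0.154). It was 1.78 and passed when Sp3-/- 697-5 was left out. Prelp, which encodes a proteoglycan that binds heparin and collagen, gave a log2 fold change of 0.04 (SE 0.54, adjusted p = 0.961). Its levels were 5.72, 4.36, 4.28 and 4.21 log2 CPM in WT, 4.75, 5.36, 4.56 and 4.98 in Sp3+/- and 3.93, 4.36 and 5.66 in Sp3-/- libraries. The highest were WT 468-4 and Sp3-/- 697-5, and the genotypes overlapped. Omd encodes osteomodulin, a keratan sulfate proteoglycan of bone, and was near the limit of detection, with 19, 18, 36 and 4 reads in WT, 6, 59, 40 and 9 in Sp3+/- and 7, 4 and 0 in Sp3-/- libraries. It passed the filter only through its WT libraries, and its log2 fold change of -2.76 was not called (SE 0.99, edgeR adjusted p = 0.0869). DESeq2 (-2.92, adjusted p = 0.0276) and an edgeR fit of all 11 libraries without the covariate (-2.75, adjusted p = 0.0410) did call it. Each of those fits called 6 members, Omd included, beside 4297 of 14025 genes with DESeq2 and 3977 of 14130 genes with all 11 libraries. Because of the filter, these calls of Omd are descriptions.

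Osteoglycin, a class III member also called mimecan, was the third member per length in WT cells. Ogn lies on chromosome 13 from 49608015 to 49624501. WT libraries measured 6.64, 7.92, 8.96 and 7.00 log2 CPM, Sp3+/- libraries 7.51, 8.21, 8.05 and 6.31, and Sp3-/- libraries 5.41, 5.53 and 3.65. No Sp3-/- library reached the lowest Sp3-carrying one, which was again 697-4. The log2 fold change was -2.85 (SE 0.70, edgeR adjusted p = 0.0342), and it moved to -1.47 with the suffix covariate (SE 0.61, adjusted p = 0.155). Its call held in 1 of 7 fits that left out 1 library, with values from -3.12 to -2.21, the smallest without WT 697-1. Epyc, a class III gene of cartilage, was near the limit of detection and was not tested. It had 12, 5, 4 and 7 reads in WT, 4, 27, 6 and 8 in Sp3+/- and 3, 11 and 3 in Sp3-/- libraries.

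Podocan, encoded by Podn on chromosome 4 from 108014793 to 108031954, is a class V member first found in kidney podocytes. It measured 2.17, 3.37, 4.25 and 3.05 log2 CPM in WT, 2.84, 3.84, 3.54 and 2.89 in Sp3+/- and 2.91, 2.97 and 3.01 in Sp3-/- libraries. The Sp3-/- values lay close together, inside the WT range. Its log2 fold change of -0.44 did not pass the test (SE 0.44, edgeR adjusted p = 0.503) and was 0.53 with the suffix covariate.

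**Figure D2:**
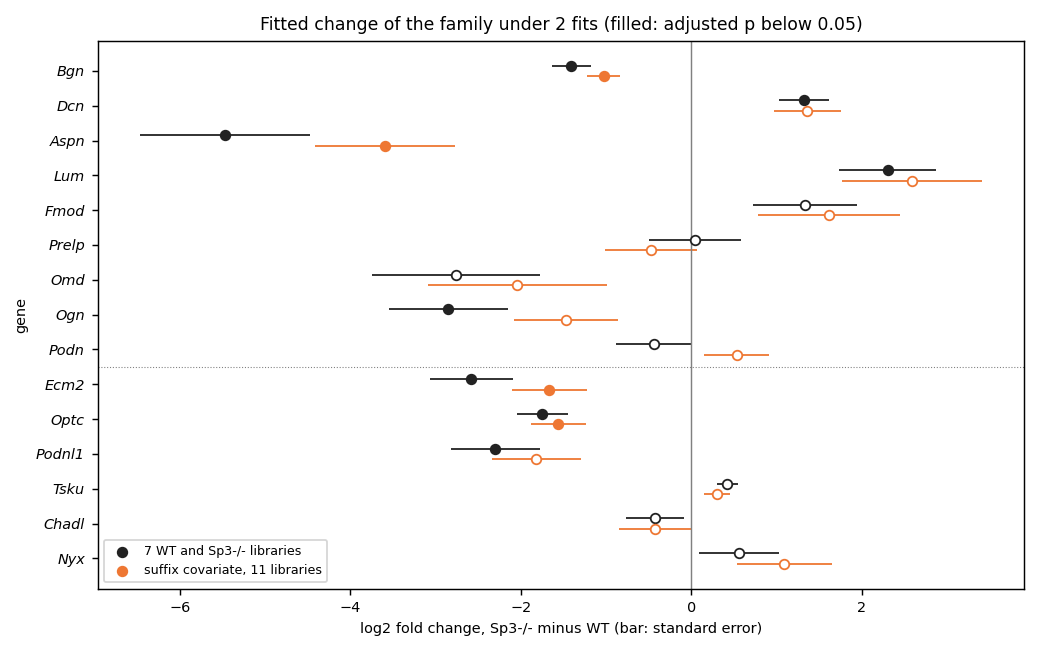
Fitted log2 fold change of Sp3-/- over WT (x axis, with standard errors) for the 9 tested members, above the dotted line, and 6 other family genes, below it. Black is the fit of 7 libraries and orange the fit of all 11 libraries with the suffix covariate, and filled points have an adjusted p below 0.05. Bgn and Aspn are filled in both, Ogn moves from -2.85 to -1.47 with the suffix covariate, and Prelp and Podn change sign.

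All 5 called members kept their calls when WT 468-4, the WT library without a suffix, was left out. That fit called 4179 of 13970 genes. None of the 9 tested members was called without Sp3-/- 697-2, where only 282 of 14004 genes were called, so the loss was not particular to the members.

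Read per kb of the canonical transcript, the members formed a steep order. In WT cells Bgn stood at 2240 ± 495 CPM per kb (SD, n = 4) and made up 92.4% to 94.4% of the summed CPM per kb of the 10 genes. Dcn followed at 71.0 ± 15.3, Ogn at 46.7 ± 35, Aspn at 23.5 ± 22.0 and Prelp at 6.42 ± 3.83 CPM per kb. Dcn, Ogn and Aspn overlapped their neighbours in this order, and the order of Dcn and Ogn was the reverse when all annotated exons set the length. In Sp3-/- cells Bgn stood at 850 ± 142 and Dcn at 179 ± 77.8 CPM per kb (SD, n = 3), and Dcn made up 13.4% to 20.8% of the sum, against 2.06% to 4.65% in WT. By mean, Lum moved from the sixth to the third place, at 22.8 ± 19.2 CPM per kb, and Aspn from the fourth to the eighth, at 0.474 ± 0.414. In Sp3-/- 697-5, however, Lum lay below Prelp (6.02 against 11.7 CPM per kb). When all annotated exons set the length, Lum ranked 7 in WT and 3 in Sp3-/- cells. The CPM of the 10 genes, not divided by length, summed to 6210 ± 1360 in WT, 6050 ± 832 in Sp3+/- and 3290 ± 831 in Sp3-/- cells.

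**Figure D3:**
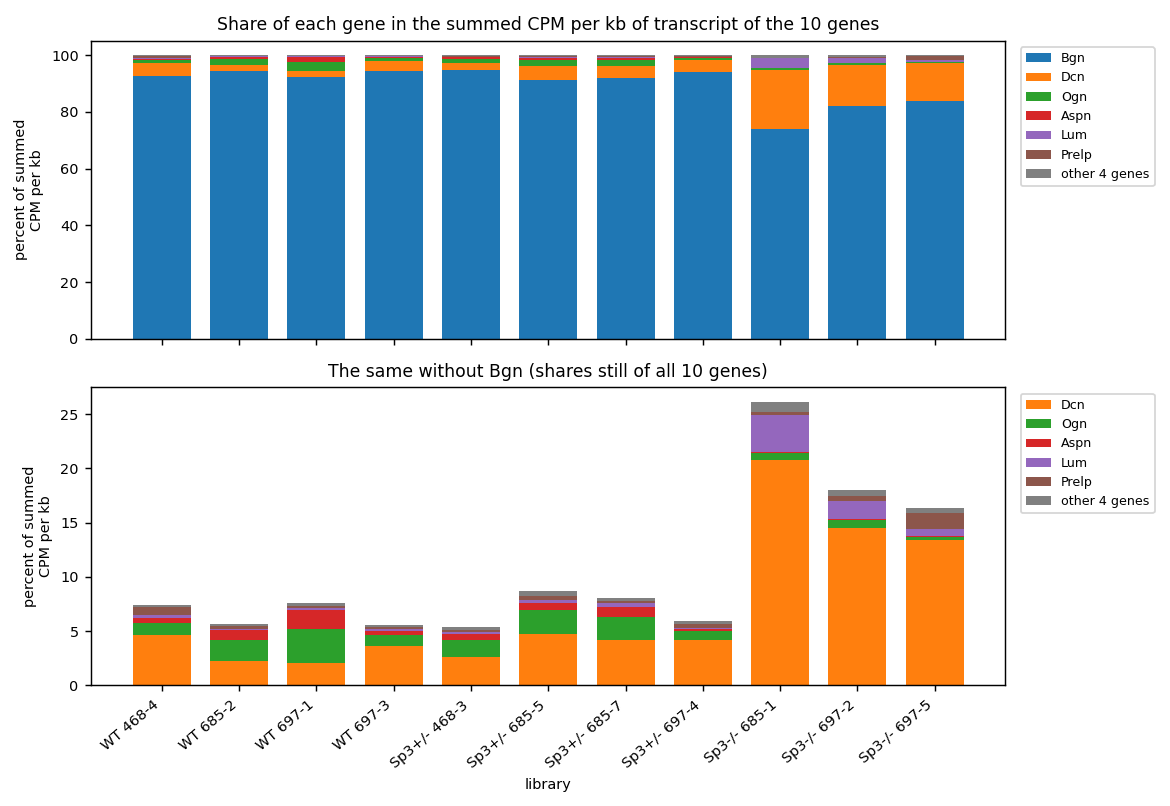
Share of each gene (y axis, percent) in the summed CPM per kb of canonical transcript of the 10 genes, for each library (x axis), with Bgn in the upper panel and without it in the lower. Bgn made up 92.4% to 94.4% in WT and 73.9% to 83.7% in Sp3-/- libraries, where Dcn took 13.4% to 20.8%.

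Sp3+/- cells did not differ detectably from WT in any member. None of the 9 members tested was called by edgeR in a fit of all 11 libraries, where 0.0% of all genes were called, and none had an unadjusted p below 0.05 by edgeR, DESeq2 or limma-voom, where 246, 281 and 306 of 14130 genes did. The largest fitted differences were those of Aspn (-0.76, SE 0.71) and Fmod (0.71, SE 0.56) on the log2 scale. The 3 Sp3-/- libraries were also compared with the 4 Sp3+/- libraries, a contrast that shares its Sp3-/- libraries with the comparison against WT. EdgeR called 5 of the 9 members there, beside 25.5% of all genes. Dcn (log2 fold change 0.98) and Lum (1.95) were called higher, beside 13.0% of all genes, and Bgn (-1.34), Aspn (-4.72) and Ogn (-2.60) lower, beside 12.5%. With the suffix covariate Bgn alone of the members was called, at -1.0, beside 763 of 14130 genes.

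Many of these genes lie in clusters. The chromosome 13 cluster spans 120 kb from 49504810 to 49624501 and holds Ecm2, Aspn, Omd and Ogn, of which Aspn and Ogn were called lower as given above. Ecm2 (extracellular matrix protein 2, a leucine-rich repeat protein) was called at -2.58 (SE 0.49, edgeR adjusted p = 0.0170), but like Omd it exceeded 1 CPM in WT and in no Sp3-/- library, so its value and that of Omd are descriptions. Omd overlapped between the genotypes, with -1.93 log2 CPM in Sp3-/- 685-1 and -2.44 in WT 697-3. The whole cluster lies inside Cenpp, a kinetochore gene that gave -0.79 (SE 0.42, adjusted p = 0.210), and no library held more than 220 reads of it. The strand setting of the counting is not given in the sources used here, so reads from exons that overlap on opposite strands cannot be told apart. The nearest coding neighbours outside, Ippk and Nol8, gave 0.36 and -0.04, and neither was called. The chromosome 10 cluster of 202 kb holds Dcn and Lum, both higher, with Kera and Epyc, which were not tested, and next to it Ccer1 had no reads, while the neighbour on the other side, Gm46240, was not analysed here. In the chromosome 1 cluster of 151 kb, Optc was called lower at -1.75 (SE 0.30, edgeR adjusted p = 0.0146), while its neighbours Prelp and Fmod were not called. Atp2b4 and Btg2, outside that cluster, gave 0.08 and -0.34, and neither was called. Beside Bgn, Haus7, a subunit of the augmin complex, was called lower at -0.87 (SE 0.15, edgeR adjusted p = 0.0153) and Atp2b3 was not tested. Beside Podn, Scp2 gave -0.10 without a call and Slc1a7 was not tested.

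**Figure D4:**
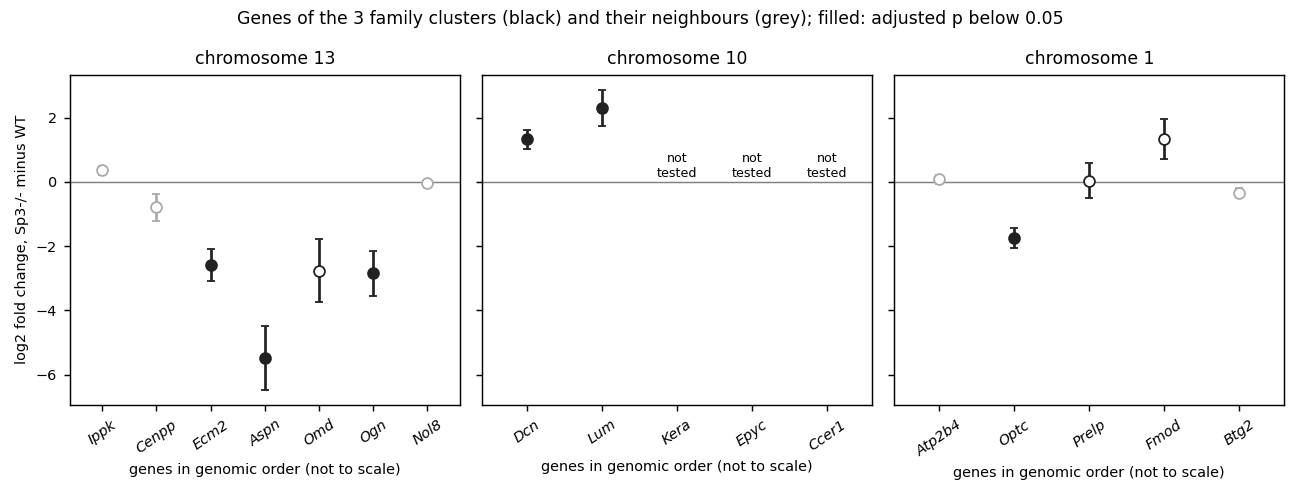
Log2 fold change of Sp3-/- over WT with its standard error (y axis) for the genes of 3 genomic clusters, in genomic order and not to scale (x axis). Family genes are black and neighbours grey (Cenpp spans the whole chromosome 13 cluster), and filled points have an adjusted p below 0.05. On chromosome 13 Aspn lies at -5.47 and Ogn at -2.85, beside Ecm2 (filled) and Omd (open), which both passed the filter only through WT libraries. Dcn and Lum on chromosome 10 lie at 1.32 and 2.30, and the chromosome 1 genes Optc, Prelp and Fmod at -1.75, 0.04 and 1.33.

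Of 8 other family genes, 6 were tested and 3 were called lower, beside 9.77% of all genes. The 3 were Ecm2, Optc and Podnl1, the podocan-like gene (-2.30, SE 0.52, edgeR adjusted p = 0.0275). Ecm2 and Podnl1 passed the filter only through WT libraries, reaching at most 0.256 and 0.609 CPM in Sp3-/- cells, so their calls are descriptions. Tsku, whose product tsukushi inhibits bone morphogenetic proteins, was higher in all 3 Sp3-/- libraries than in any WT library but missed the threshold (0.42, SE 0.12, adjusted p = 0.0503). Chadl gave -0.43 and Nyx 0.56, and Kera and Chad did not pass the filter. Podnl1 kept its call in 1 of 7 fits that left out 1 library. With the suffix covariate Ecm2 (-1.67) and Optc (-1.56) were called lower, beside 5.8% of all genes.

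Across the 11 libraries Aspn followed Ogn and Bgn, with Pearson's r of log2 CPM of 0.96 and 0.97, and within the 8 Sp3-carrying libraries r was 0.95 and 0.86. Dcn and Lum had r of 0.92 over 11 libraries and 0.68 over the 8. The genes outside the family whose pattern over the 11 libraries was most like that of Aspn were Prrx1, a mesenchymal homeobox gene, Rspo2, an R-spondin that enhances Wnt signalling, Snai2, a transcriptional repressor, Slc9a5 and the cadherin gene Fat4, with r from 0.977 to 0.983. For Dcn they were Rprd1a, Rabgap1l, Ankib1, Ccdc126 and Il17rd (0.943 to 0.978), and for Lum Arid4b, Fam84b, Tmed8, Rabgap1l and Dopey1 (0.927 to 0.947). These are descriptions over libraries that share genotype, suffix and depth.

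Genes that build, bind and cleave the proteoglycans were counted in the same edgeR comparison of Sp3-/- with WT, by lists chosen for their known roles. Of 14 collagens of the fibrils that these proteoglycans bind, all tested, 5 were called lower (beside 9.77% of all genes) and none higher (8.76%), and the median log2 fold change was -1.04 against 0 over all genes. The 3 largest were Col6a3, a chain of the microfibrillar collagen VI (-4.0, SE 0.70, adjusted p = 0.0153), Col11a1, which nucleates fibrils (-2.58, SE 0.43, adjusted p = 0.0137), and Col12a1, which lies on fibril surfaces (-2.43, SE 0.28, adjusted p = 0.0074). Each of the 3 remained called lower with the suffix covariate, where 4 of the 14 were called lower, beside 5.8% of all genes (9.41% in either direction), and the median was -0.49.

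Of 22 tested genes of chondroitin and dermatan sulfate synthesis, 2 were called higher and 5 lower, with a median of 0.01, beside 8.76% of all genes higher and 9.77% lower. The largest were the sulfotransferase Chst7 (-1.93, SE 0.17, edgeR adjusted p = 0.0061), the chain polymerase Chsy3 (-1.65, SE 0.31, adjusted p = 0.0166) and the uronyl sulfotransferase Ust (-1.34, SE 0.25, adjusted p = 0.0177), and each remained called with the suffix covariate (-1.85, -1.34 and -1.0). Of 6 tested genes of keratan sulfate synthesis, 2 were called higher, the glucosaminyltransferases B3gnt7 (2.04) and B3gnt2 (0.47), and 1 lower, the sulfotransferase Chst2 (-1.09). B3gnt7 passed the filter only through Sp3-/- libraries. None of the 3 was called with the suffix covariate, although that fit called 1 other gene of the list. Among 14 ligands and receptors, Tgfb2, a transforming growth factor beta, was called lower (-1.68, SE 0.14, adjusted p = 0.0061) and Tlr4, a Toll-like receptor that biglycan can engage, higher (1.27, SE 0.33, adjusted p = 0.0385). With the suffix covariate Tgfb2 kept its call (-1.57, adjusted p = 0.0040) and Tlr4 did not (0.85, adjusted p = 0.112). Among 9 proteases and their cofactors, the tolloid-like protease Tll1 (-2.37) and the procollagen proteinase enhancer Pcolce (-2.31) were called lower and the collagenase Mmp13 higher (1.96), and with the suffix covariate Tll1 (-2.11) and Pcolce (-1.30) kept their calls while Mmp13 did not (1.53, edgeR adjusted p = 0.0900). Among 11 other secreted proteoglycans tested, Spock2 was called higher (1.71) and Bcan lower (-1.43), and the call of Spock2 was lost with the suffix covariate (1.60, edgeR adjusted p = 0.0812) while that of Bcan was kept (-1.99). All counts in this paragraph stand beside 8.76% of all genes called higher and 9.77% lower, or 3.6% and 5.8% with the suffix covariate. For the ligands and receptors and for the other secreted proteoglycans, 1 call in each direction was near the share over all genes. The 2 chondroitin and dermatan sulfate genes and the 1 protease called higher were near it as well. These counts are no result about the lists.

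Markers of some cell types, though not of all those listed, differed between the genotypes as well. Beside each count of markers stand 8.76% of all genes called higher and 9.77% called lower, or 3.6% and 5.8% with the suffix covariate. In bulk RNA, fewer cells of a type and less RNA per cell cannot be told apart. The 8 smooth muscle and pericyte markers summed to 10700 to 23400 CPM in WT, 13200 to 18000 in Sp3+/- and 1730 to 4240 in Sp3-/- libraries, and 7 of the 8 were called lower (6 with the suffix covariate). The 11 lung mesenchyme markers summed to 13100 to 22100 CPM in WT and 7120 to 19100 in Sp3-/- libraries, with 4 called lower and 1 higher (2 and 1 with the covariate). The 6 mesothelial markers summed to 697 to 1660 CPM in WT, 1370 to 2420 in Sp3+/- and 2030 to 5660 in Sp3-/- libraries, with 3 called higher (1 with the covariate). Of the 10 macrophage markers 5 were called higher, and their sum ran from 569 to 2960 CPM in WT and from 2850 to 10600 in Sp3-/- libraries. None of the 10 was called with the suffix covariate, where their median log2 fold change went from 2.33 to 1.17. The highest Dcn, Lum and Fmod levels were in Sp3-/- 685-1, which also had the highest mesothelial, epithelial and cartilage marker sums. Among Sp3-/- libraries, its lung mesenchyme and smooth muscle sums were also highest (19100 and 4240 CPM) and its macrophage sum lowest (2850 CPM). The cartilage markers were mixed. Sox5 and Sox6 reached 16.8 and 41.6 CPM in Sp3-/- against 7.94 and 17.8 in WT libraries. Acan, Col2a1 and Matn3 reached 0.2, 0.3 and 0.181 CPM against 4.04, 1.1 and 3.11. The part of these cell types in the proteoglycan values was not tested. The 8 epithelial markers summed to 14.6 to 33.6 CPM in WT, 21.2 to 31.5 in Sp3+/- and 46.5 to 151 in Sp3-/- libraries, so that Sp3-/- lay above the others, while Sftpb and Scgb1a1 had at most 3 reads. Of the 6 tested, the keratin gene Krt18 and, passing the filter only through Sp3-/- libraries, Epcam and Cdh1 were called higher (1 of the 6 with the covariate). Endothelial markers summed to 34.2 to 92.1 CPM in WT and 65.9 to 120 in Sp3-/- libraries, with 1 called higher and 1, Erg, which passed through WT libraries, lower (neither direction had a call with the covariate), and Cldn5 had at most 3 reads. Cartilage markers summed to 26.6 to 44.8 CPM in WT and 25.3 to 64.6 in Sp3-/- libraries, none was called, and Col9a1 and Cnmd (listed under its older symbol Lect1) had at most 3 reads. Tendon and bone markers summed to 36.9 to 43.8 CPM in WT and 22.4 to 27.6 in Sp3-/- libraries, none was called (1 was lower with the covariate), and Ibsp and Bglap had at most 3 reads.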

How the data were processed

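RNA from passaged E15 fetal lung mesenchymal cells was sequenced by the authors as single-end reads from TruSeq libraries, checked with FastQC v0.10.1, aligned to mm10 with STAR v2.4.5a and counted with htseq-count. The deposited values are whole-number counts per gene symbol, with no normalization. Between 38.4% and 40.9% of each library's tallied reads were assigned to no gene and were left out. No pair of libraries of a genotype agreed within counting noise (lowest chi-square per degree of freedom 16.6).

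The filter kept each gene that exceeded 1 CPM in any library of the comparison. The remaining genes were tested in edgeR 4.0.16 (TMM, estimateDisp, robust glmQLFit, glmQLFTest) in R 4.3.3, over 14025 genes for Sp3-/- against WT (7 libraries) and 14130 for comparisons with Sp3+/- (11 libraries). Changes were called at a Benjamini-Hochberg adjusted p below 0.05, and standard errors were derived from each fold change and its F statistic. Log2 CPM used TMM factors of all 11 libraries and a prior count of 2. Alternatives were DESeq2 1.42.0, limma-voom (limma 3.58.1) with a consensus correlation within the first label number, other scalings and filters, a block, a suffix covariate and each library left out. The pipeline was tested on simulated counts that held no suffix effect, so that test does not bear on the suffix.

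The members and lists were chosen with earlier results of these data known. All members and 8 other family genes are named, with at most 3 called genes of each further list, the 5 genes nearest in pattern to Aspn, Dcn and Lum (mean above 2 log2 CPM) and the nearest coding neighbours. Coordinates and promoters are RefSeq's on GRCm38.p6. Transcript lengths are GENCODE's on GRCm39, and the exon-union length was added after seeing the data. Title suffixes were used, although the file name of Sp3+/- 697-4 carries a 2, and no fit used that suffix for it.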

Additional observations from a re-analysis of the deposited data

Results flagged for a closer look

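Prelp stood apart in WT library 468-4, where it measured 5.72 log2 CPM against 4.21, 4.28 and 4.36 in the other WT libraries, a gap of 0.90 of the group's range. This was the only one of 20 groups of 4 libraries (10 members in WT and in Sp3+/-) past Dixon's critical value of 0.829, which chance passes in about 1 of 20 groups. The library is the WT library without a title suffix. Leaving it out gave a log2 fold change of Prelp in Sp3-/- against WT of 0.55, which edgeR did not call.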

How the results depend on the processing

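For Sp3-/- against WT, 5 members and 2599 genes were called. DESeq2 called 4297 genes, all 11 libraries in 1 fit 3977 and the suffix covariate 1329. The suffix covariate called 2 members, and the fit of every gene with a count called 3 members and 2197 of 19959 genes. With only the libraries without a suffix, where the lone WT library was assumed to vary like the Sp3-/- libraries, no gene was called. Leaving out 1 library gave 0 to 5 members and 282 to 4179 genes, the lowest without Sp3-/- 697-2. For Sp3-/- against Sp3+/-, 5 members and 3607 genes were called, against 1 member and 763 genes with the suffix covariate. In that contrast 3 members were called with limma-voom (3691 genes), with every gene with a count (3007 genes) and with only these genotypes (3227 genes). Leaving out 1 library gave 2 to 4 members and 1490 to 3706 genes there, the lowest again without 697-2. Omd and Epyc had the fewest reads, which limits them most.

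The first label number (468, 685 or 697) as a replicate block called 4031 genes and 4 members against WT, Lum missing the threshold at 2.14 (adjusted p = 0.0515). Of 14 same-numbered pairs across genotypes, 7 had a correlation of deviations above 0.1 (median 0.10, from -0.63 to 0.35). Of 26 differently numbered pairs, 10 did (median -0.045, from -0.53 to 0.72). These correlations cannot settle whether the numbers pair the libraries, because libraries of the same number also differ in suffix. The block takes WT 468-4 out of the contrast of Sp3-/- with WT.

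In the comparisons that called them, the called members kept their direction under every alternative run, and the sign changes were among values that were not called. Prelp against WT (0.04) was -0.25 with limma-voom, -0.03 with the upper quartile, -0.47 with the suffix covariate and -0.89 with libraries without a suffix, and from -0.66 to 0.55 with 1 library left out. Podn (-0.44) was 0.53 with the suffix covariate, 0.79 with libraries without a suffix and from -0.70 to 0.03 with 1 left out. In Sp3+/- against WT, Omd was 0.53 and Podn 0.35 with limma-voom, Lum -0.25 and Podn 0.02 with the block and Podn 0.22 with the suffix covariate. There, leaving out 1 library gave -0.19 to 0.06 for Bgn, -1.14 to 0.10 for Aspn, -0.49 to 0.38 for Ogn, -0.03 to 0.66 for Prelp, -0.56 to 0.30 for Omd and -0.30 to 0.40 for Podn. In Sp3-/- against Sp3+/-, Podn was 0.30 with the suffix covariate, and leaving out 1 library gave -0.32 to 1.11 for Fmod and -0.81 to 0.21 for Prelp. The cause was not tested.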
